A study of Mus musculus with 9 samples.

Results

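The integrated stress response regulators described here are 10 genes, Atf3, Atf4, Atf5, Ddit3, Trib3, Ppp1r15a, Ppp1r15b, Cebpb, Cebpg and Chac1. They were chosen by name, through the NCBI Gene numbers of the count table, and all 10 were found among its 27179 genes. RNA immunoprecipitation sequencing (RIP-seq), which sequences RNA recovered together with a chosen protein, was used to ask which RNAs associate with phosphorylated UPF1 (p-UPF1) in activated B cells. Splenic B cells of wild-type mice, obtained by depleting CD43+ cells, had been activated for 72 h. Per the labels the stimuli were CD40L at 5 ug/mL, anti-IgM antibody at 10 ug/mL and IL-4 at 20 ng/mL, while the study's methods name an anti-CD40 antibody in place of CD40L. All 9 libraries came from cells of this genotype and treatment, with 3 libraries of the lysate (input), 3 of RNA precipitated with normal rabbit IgG and 3 of RNA precipitated with anti-p-UPF1 antibody. No unstimulated or stressed cells were among them, and the labels give neither an age nor separate cultures behind the replicates. The study's methods give a single age range, with both sexes, for all its mice and none per library. They call the data points of its graphs independent biological replicates, without naming these libraries. A p-value thus measures the spread between these libraries, which may be technical.

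In the integrated stress response, kinases such as PERK and GCN2 phosphorylate the initiation factor eIF2 and slow translation of most mRNAs, while a few mRNAs with upstream reading frames in their 5' untranslated regions (5' UTRs) are translated better. ATF4 is the central transcription factor made this way. It drives the genes of further transcription factors (ATF3, CHOP, encoded by Ddit3, and ATF5), of the pseudokinase TRIB3, of the glutathione-degrading enzyme CHAC1 and of GADD34, encoded by Ppp1r15a, which leads a phosphatase back to eIF2. UPF1 is the RNA helicase of nonsense-mediated mRNA decay (NMD), a pathway that recognises translation ending too early, and its phosphorylated form accumulates on mRNAs undergoing this decay. Upstream reading frames and splice junctions downstream of a stop codon are features through which NMD is known to act, and Atf4, Atf3 and Ddit3 are textbook examples of stress mRNAs on which the pathway acts.

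Of the 10 mRNAs, 7 had at least 1 ATG in the 5' UTR of their RefSeq Select transcript, the transcript that RefSeq takes as representative. The windows below show 10 bases before and 4 bases after such ATGs for the genes on which the comparison turns, with the ATG in capitals. Atf3, Ddit3 and Ppp1r15a are among the mRNAs most enriched with p-UPF1, and Atf4, Atf5 and Ppp1r15b are their close relatives or regulators with less or no enrichment. Sequences and positions are from RefSeq on GRCm38.p6, which is the mm10 build. The third ATG of Atf4, the sixth of Atf5 and that of Cebpg have windows crossing a splice junction and are not shown, and of the other 5 of Atf5 the first and the fifth are shown, the fifth being an ATG whose frame runs past the coding start.
Atf3 upstream ATG 1, chr1:191183265-191183281, minus strand: aaaaggggtgATGcaac
Ddit3 upstream ATG 1, chr10:127290819-127290835, plus strand: cgattatatcATGttga
Ddit3 upstream ATG 2, chr10:127290828-127290844, plus strand: catgttgaagATGagcg
Ppp1r15a upstream ATG 1, chr7:45526228-45526244, minus strand: cgcgtggacgATGttgg
Ppp1r15a upstream ATG 2, chr7:45526184-45526200, minus strand: ggaagattacATGcgat
Ppp1r15a upstream ATG 3, chr7:45526083-45526099, minus strand: tgagggcgacATGaacc
Atf4 upstream ATG 1, chr15:80255293-80255309, plus strand: cttttctctcATGgggc
Atf4 upstream ATG 2, chr15:80255572-80255588, plus strand: tgcggccaccATGgcgt
Atf5 upstream ATG 1, chr7:44815612-44815628, minus strand: tgtgacactgATGaagg
Atf5 upstream ATG 5, chr7:44815495-44815511, minus strand: tgaaatttttATGaaga
Ppp1r15b upstream ATG 1, chr1:133131235-133131251, plus strand: ggttcggcgaATGacgt
Ppp1r15b upstream ATG 2, chr1:133131458-133131474, plus strand: ggtcttctctATGgtgg
Ppp1r15b upstream ATG 3, chr1:133131507-133131523, plus strand: cctagccgggATGgacc

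The letters around an ATG are known to bear on how well ribosomes start there, with a purine 3 bases before the A and a G right after the ATG the most favourable. Of the 19 upstream ATGs of the 10 genes, 3 had both, namely the second and the third of Atf4 and the third of Ppp1r15b. None of the 6 upstream ATGs of Atf3, Ddit3 and Ppp1r15a had both, although 5 of these 6 had the purine. Both were also absent together from the 6 of Atf5 and the 1 of Cebpg. The share over all tested genes is not given. Of the 10 coding starts, those of Ddit3 and Ppp1r15b had both.

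Each library held between 17372510 and 24945286 counts, with the lowest totals in IgG. After removal of genes with few counts, 13129 genes were tested and all 10 regulators were among them. B cell identity held, since the 6 B cell markers summed to between 3200 and 3223 CPM, the counts scaled to a common total with TMM factors, in input. Their sums were lower in the precipitates, between 2494 and 2584 CPM in IgG and between 2398 and 2471 in p-UPF1. T cell, NK cell and erythroid markers summed to less than 1 CPM in every library. The 4 myeloid markers summed to between 127.4 and 139 CPM in input, between 85.94 and 91.5 in IgG and between 57.15 and 59.27 in p-UPF1, nearly all of it from Adgre1, and their part in the results was not tested. In the input of bulk lysates, fewer cells of a type and less RNA per cell cannot be told apart. The study's methods keep a part of the lysate as input and use the rest for precipitation, so the groups compare RNA fractions. Of the 10 regulators, 9 had their lowest p-UPF1 value in library C, against 34.2% of all tested genes. For Cebpg and Ppp1r15a library A was nearly as low, at 118.7 and 222.6 CPM against 118.7 and 222.5 CPM in C. Library C was also lowest for 7 of the 10 in input and for 5 in IgG, and in all 3 groups for 4. The matching shares of all tested genes are not given, so these counts cannot be called particular to the 10. The genes bound with all libraries, 4 of the 10, were also bound without p-UPF1 library C. The deposited columns give the libraries of each group a letter, and whether a letter marks a shared lysate is not stated. With the letter as a block the same 4 of the 10 genes were bound.

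The 10 mRNAs split between the precipitates. In p-UPF1, 4 of 10 passed the criterion of the study's methods for a bound RNA, a minimum log2 fold change of 1 against IgG and of 2 against input with adjusted P under 0.05 in both. These were Atf3, Trib3, Ddit3 and Ppp1r15a, and the same criterion was met by 6.25% of all tested genes (820 of 13129). Over IgG, 6 of the 10 were higher in p-UPF1 (40.4% of tested genes) and 4 were lower (42.2%). With a minimum size of 1 on the log2 scale, 5 were higher (22.2%) and 2 were lower (21.9%). Over input, 5 were higher (40.8%) and 4 were lower (42.6%), while Atf5 was not called. With the minimum of 2 over input, 4 were higher (6.31%) and none was lower (9.67%), although 4 were called lower without a minimum. Every p-UPF1 library lay above all 6 background libraries for 5 of the 10 genes (37% of tested genes) and below all 6 for 4 (37.6%). The median log2 fold change of the 10 was 0.85 over IgG and 0.28 over input, against -0.03 for all tested genes in both. The summed share of the 10 genes was 0.123% ± 0.000447 of all input counts, 0.113% ± 0.00232 of IgG counts and 0.234% ± 0.0216 of p-UPF1 counts (SD, n = 3). Both contrasts use the same p-UPF1 libraries and so are not independent of each other. All values are relative to the other RNAs of a library, and no added RNA standard or yield of the precipitations is given. Lower in p-UPF1 thus means a smaller share than in the background, and the amounts of RNA recovered are not known.

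**Figure D1:**
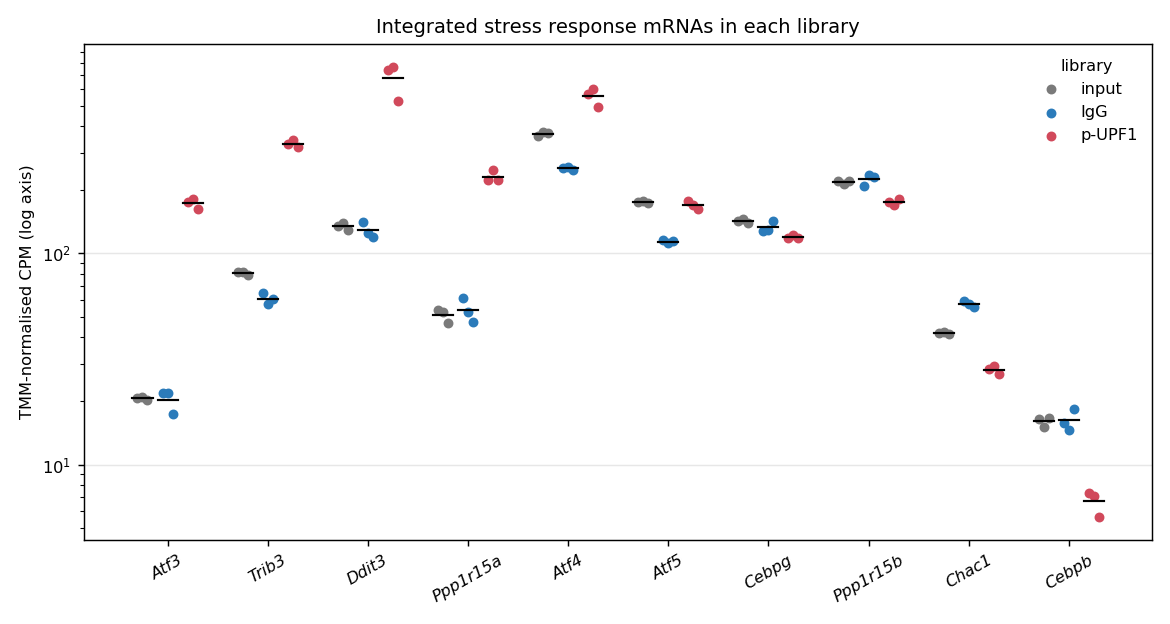
TMM-normalised CPM on a log axis for each of the 10 genes, ordered by log2 fold change over IgG, with 1 point per library and a bar at the mean of the 3 input, 3 IgG and 3 p-UPF1 libraries. The p-UPF1 points lie above both other groups for Atf3, Trib3, Ddit3, Ppp1r15a and Atf4, and below both for Cebpg, Ppp1r15b, Chac1 and Cebpb, while for Atf5 they overlap input.

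Among the transcription factors, Atf3 was the most enriched. Atf3 (gene 11910, chr1:191170296-191183333) encodes a stress-induced bZIP factor that mostly represses transcription. Its level in input libraries A, B and C was 20.8, 20.8 and 20.1 CPM. In IgG it was 21.8, 21.8 and 17.3 CPM, and in p-UPF1 175, 181 and 163 CPM. All p-UPF1 libraries thus lay far above all others, and IgG and input overlapped. The log2 fold change was 3.09 (SE 0.07) over IgG and 3.07 (SE 0.07) over input, with adjusted P = 5.80e-16 and 4.19e-16 (edgeR quasi-likelihood test, Benjamini-Hochberg adjustment). These are 8.52-fold and 8.40-fold, and over IgG the value exceeded that of 99.21% of tested genes.

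Ddit3 (gene 13198, chr10:127290793-127296291) encodes CHOP, the bZIP factor that links prolonged stress to cell death. Its input level was 135, 139 and 129 CPM in libraries A, B and C. In IgG it was 141, 125 and 119 CPM, and in p-UPF1 734, 766 and 524 CPM. The groups of p-UPF1 and background did not overlap, but p-UPF1 library C lay well below libraries A and B. The coefficient of variation in p-UPF1 was 19.5%, and of the 8559 genes with a mean of at least 10 CPM there only 0.164% had a larger one (median 3.63%). On the log2 scale Ddit3 was higher by 2.39 (SE 0.11) over IgG and 2.33 (SE 0.11) over input, with edgeR adjusted P = 2.48e-12 and 2.82e-12. Without p-UPF1 library C these were 2.55 and 2.48.

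Atf4 (gene 11911, chr15:80255184-80257545), the central factor of the response, was the most abundant of the 10 per kilobase of mRNA in input. Input libraries had 358, 373 and 371 CPM, IgG libraries 254, 257 and 249 CPM, and p-UPF1 libraries 567, 601 and 492 CPM. The 3 groups were fully separate, with IgG lowest and p-UPF1 highest. The log2 fold change was 1.13 (SE 0.06) over IgG but 0.59 (SE 0.06) over input, with edgeR adjusted P = 1.20e-11 and 4.75e-08. Atf4 thus passed the minimum over IgG and missed the one over input. With library size alone or upper-quartile factors its value over IgG was 0.967 and 0.992, under the minimum, and 4 of the 10 genes then passed it. These scalings moved the median of all tested genes over IgG to -0.19 and -0.17, and the share passing is not given. Atf4 mRNA was also lower in IgG than in input, with a log2 fold change of -0.54 (SE 0.06, edgeR adjusted P = 1.11e-06).

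Atf5 (gene 107503, chr7:44812256-44816658) encodes a bZIP factor whose translation, like that of ATF4, is held back by upstream reading frames in unstressed cells. Its level was 175, 176 and 172 CPM in input. IgG libraries had 115, 112 and 114 CPM, and p-UPF1 libraries 177, 169.9 and 163 CPM. Here p-UPF1 and input overlapped, and IgG was lower than both. The log2 fold change over IgG was 0.58 (SE 0.04, edgeR adjusted P = 1.26e-09), and over input it was -0.04 (SE 0.04, edgeR adjusted P = 0.374). With upper-quartile factors Atf5 was called lower than input, at -0.11 (edgeR adjusted P = 0.0259). The value of IgG over input was -0.62 (SE 0.04, edgeR adjusted P = 8.73e-09), lower than for all but 9.98% of tested genes.

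Both C/EBP mRNAs were lower in p-UPF1. Cebpb (gene 12608, chr2:167688915-167690432) encodes a bZIP factor that dimerises with ATF4 and CHOP, and has no intron. Input libraries had 16.4, 15.1 and 16.7 CPM, IgG libraries 15.7, 14.6 and 18.3 CPM, and p-UPF1 libraries 7.37, 7.09 and 5.62 CPM. Each p-UPF1 library was thus below every background library, and IgG and input overlapped. Cebpb differed by a log2 fold change of -1.27 (SE 0.12) over IgG and -1.26 (SE 0.12) over input, with edgeR adjusted P = 3.64e-08 and 3.49e-08.

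Cebpg (gene 12611, chr7:35046422-35056566) encodes the short C/EBP partner of ATF4. Its values were 142, 146 and 139 CPM in the input libraries, 127, 129 and 143 CPM with IgG, and 119, 122 and 119 CPM with p-UPF1. The p-UPF1 libraries were lowest but close to the others. The log2 fold change of -0.15 (SE 0.05) over IgG had edgeR adjusted P = 0.00795, and that of -0.25 (SE 0.05) over input had edgeR adjusted P = 0.00014. Without the low-count filter the difference from IgG was not called, with edgeR adjusted P = 0.0727.

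The regulators of eIF2 dephosphorylation went in opposite directions. Ppp1r15a (gene 17872, chr7:45522917-45526268) encodes GADD34, the stress-induced subunit that brings protein phosphatase 1 to eIF2. Input libraries had 54.0, 52.8 and 46.8 CPM, IgG libraries 61.4, 52.6 and 47.1 CPM, and p-UPF1 libraries 223, 247 and 223 CPM. Input and IgG overlapped, and every p-UPF1 library was above both. On the log2 scale Ppp1r15a was higher by 2.10 (SE 0.08) over IgG and 2.17 (SE 0.08) over input, with edgeR adjusted P = 1.85e-13 and 1.03e-13. With edgeR's glmTreat, which tests the minimum fold itself, the adjusted P over input was 0.0513, and Ppp1r15a was then not called bound.

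Ppp1r15b (gene 108954, chr1:133131166-133139800) encodes CReP, the constitutive counterpart of GADD34. Its level was 220.3, 212 and 220.4 CPM in the input libraries, 207, 234 and 229.6 CPM with IgG, and 176, 169.8 and 181 CPM with p-UPF1. Every p-UPF1 library was below every other library. Ppp1r15b differed by a log2 fold change of -0.35 (SE 0.05) over IgG and -0.31 (SE 0.05) over input, with edgeR adjusted P = 3.69e-06 and 1.35e-05.

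The remaining pair, both targets of ATF4 and CHOP, also parted. Trib3 (gene 228775, chr2:152337425-152344060) encodes a pseudokinase that binds ATF4 and CHOP and dampens the response. Its level was 81.2, 81.5 and 78.9 CPM in the input libraries, 64.7, 57.4 and 61.0 CPM with IgG, and 328, 342 and 318 CPM with p-UPF1. The 3 p-UPF1 libraries lay close together and well above the rest. On the log2 scale Trib3 was higher by 2.43 (SE 0.05) over IgG and 2.03 (SE 0.05) over input, with edgeR adjusted P = 1.03e-16 and 4.63e-16. The value over input sat just above the minimum of 2, and scaling by library size alone or by upper-quartile factors took it to 1.99 and 1.97, so that Trib3 was then not called bound. The glmTreat adjusted P over input was 0.694, which also ended the call.

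Chac1 (gene 69065, chr2:119351242-119354326) encodes a glutathione-specific gamma-glutamylcyclotransferase. Input libraries had 41.97, 42.4 and 41.5 CPM, IgG libraries 59.5, 57.8 and 55.8 CPM, and p-UPF1 libraries 28.4, 29.2 and 26.8 CPM. The groups were separate, and the order was IgG, input, p-UPF1. Chac1 differed by a log2 fold change of -1.03 (SE 0.05) over IgG and -0.58 (SE 0.06) over input, with edgeR adjusted P = 2.11e-11 and 5.71e-08. Chac1 was also called higher in IgG than in input, as 1 of the 10, against 18.2% of tested genes. Its log2 fold change there was 0.46 (SE 0.05, edgeR adjusted P = 2.64e-06). In 6 alternative settings the count was 2 or 3, where Ppp1r15b and Ppp1r15a joined it, and the share of tested genes there is not given. Without p-UPF1 library C the difference from IgG was -0.997, just short of 1 in size, which left Cebpb as the 1 gene lower at that minimum. The same held with glmTreat, where Chac1 had adjusted P = 0.261 over IgG.

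**Figure D2:**
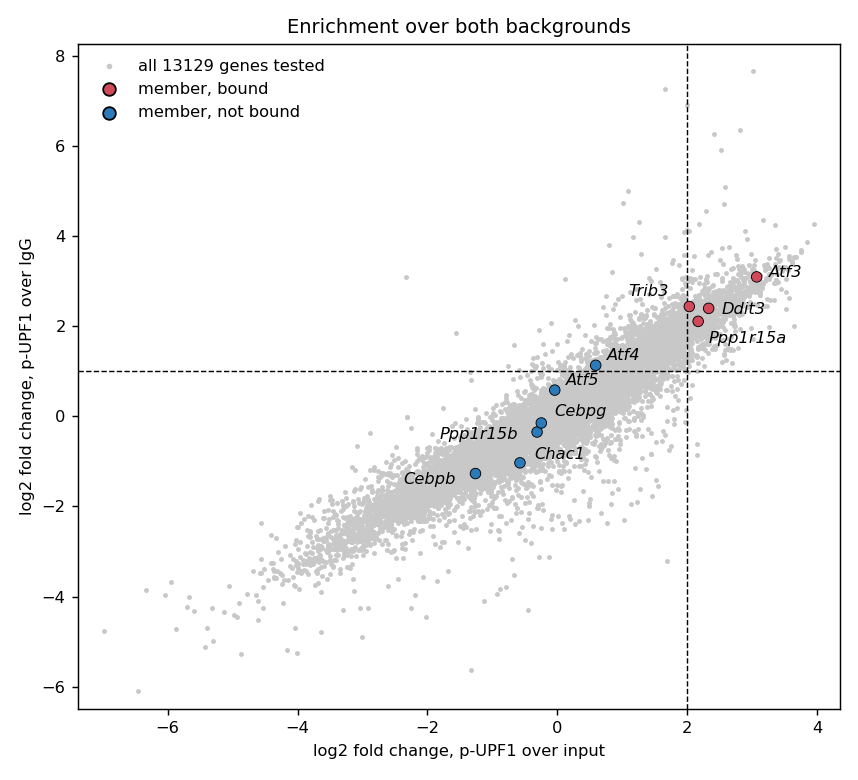
Log2 fold change of p-UPF1 over IgG (vertical) against that over input (horizontal) for all 13129 tested genes in gray and the 10 regulators in colour, with dashed lines at the minimum of 1 over IgG and 2 over input. Atf3, Ddit3, Trib3 and Ppp1r15a lie in the upper right field, with Trib3 at the line, and the other 6 lie outside it.

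The IgG precipitate, which measures RNA held by a nonspecific antibody and beads, separated the genes less. Of the 10 regulators, 3 were lower in IgG than in input (Atf4, Atf5 and Trib3; 34.7% of tested genes) and 1 was higher (Chac1; 18.2%). None differed by 1 or more on the log2 scale, whereas 2.07% of tested genes were higher and 2.16% lower by that much. For Atf3, Ddit3, Ppp1r15a, Ppp1r15b, Cebpb and Cebpg the values of IgG over input ranged from -0.10 to 0.06 and were not called, with edgeR adjusted P from 0.0993 to 0.939. Their sign changed with the scaling or with the libraries in the fit, and some calls were gained. Ppp1r15b was called higher in IgG in 6 alternative settings (0.15 with library size alone, edgeR adjusted P = 0.00775), Ppp1r15a was called higher without the low-count filter, and Cebpg was called lower without IgG library C (-0.16, edgeR adjusted P = 0.00606).

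Levels of different mRNAs were compared as CPM per kilobase of the RefSeq Select transcript. In input, Atf4 was highest at 212 ± 4.93, followed by Ddit3 at 154 ± 5.76 and Atf5 at 101 ± 1.08 (SD, n = 3). Trib3 at 39.3 ± 0.712 and Ppp1r15b at 39.0 ± 0.831 overlapped, then came Cebpg at 30.2 ± 0.740, Chac1 at 26.7 ± 0.292 and Ppp1r15a at 22.0 ± 1.67 (SD, n = 3). Cebpb at 10.6 ± 0.559 and Atf3 at 10.4 ± 0.199 were lowest and overlapped (SD, n = 3). Apart from those overlaps, each neighbour in this order was separate over its 3 libraries.

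In IgG, Ddit3 at 148 ± 13.3 and Atf4 at 146 ± 2.31 CPM per kilobase led and overlapped (SD, n = 3). In p-UPF1, Ddit3 led at 774 ± 151 CPM per kilobase, and Atf4 followed, without overlap, at 320 ± 32.4 (SD, n = 3). Trib3 was at 161 ± 5.93, and Ppp1r15a at 98.8 ± 5.97, Atf5 at 97.7 ± 4.03 and Atf3 at 87.4 ± 4.78 came next (SD, n = 3). Ppp1r15a and Atf5 overlapped, and the lowest value of Atf5 lay above the highest of Atf3. Ppp1r15b at 31.4 ± 0.959, Cebpg at 25.5 ± 0.388, Chac1 at 17.9 ± 0.788 and Cebpb at 4.41 ± 0.619 stood below, without overlap between neighbours (SD, n = 3). Atf3 thus moved from rank 10 in input to rank 6 in p-UPF1. Ddit3 has 4 annotated mRNA isoforms, Cebpb 3 and Atf4 2, and reads from another isoform would change the length that applies. For Ddit3 the transcript has 871 bases, while all its annotated exons together have 2542. Over the longer length Ddit3 would stand below Atf4 in p-UPF1 and IgG, so its lead depends on the length taken.

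Ratios of 2 genes within a library do not depend on how libraries are scaled. The 4 pairs shown were chosen after their values were seen. Ppp1r15a over Ppp1r15b was between 1.23 and 1.45 in p-UPF1, between 0.205 and 0.296 in IgG and between 0.212 and 0.249 in input. Ddit3 over Atf4 was between 1.07 and 1.29 in p-UPF1, between 0.478 and 0.557 in IgG and between 0.347 and 0.376 in input. In p-UPF1 both ratios therefore lay above 1 in each library and in the background libraries below 1.

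Trib3 over Chac1 was between 11.5 and 11.9 in p-UPF1, between 0.993 and 1.09 in IgG and between 1.90 and 1.94 in input. Atf5 over Atf4 was between 0.283 and 0.331 in p-UPF1, between 0.436 and 0.458 in IgG and between 0.464 and 0.488 in input. The p-UPF1 range did not overlap the others in any of these pairs, which were picked for their values, so no test is given. Of single genes, 37% lay wholly above and 37.6% wholly below both backgrounds. These shares do not apply to ratios, and a share over pairs of genes is not given.

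**Figure D3:**
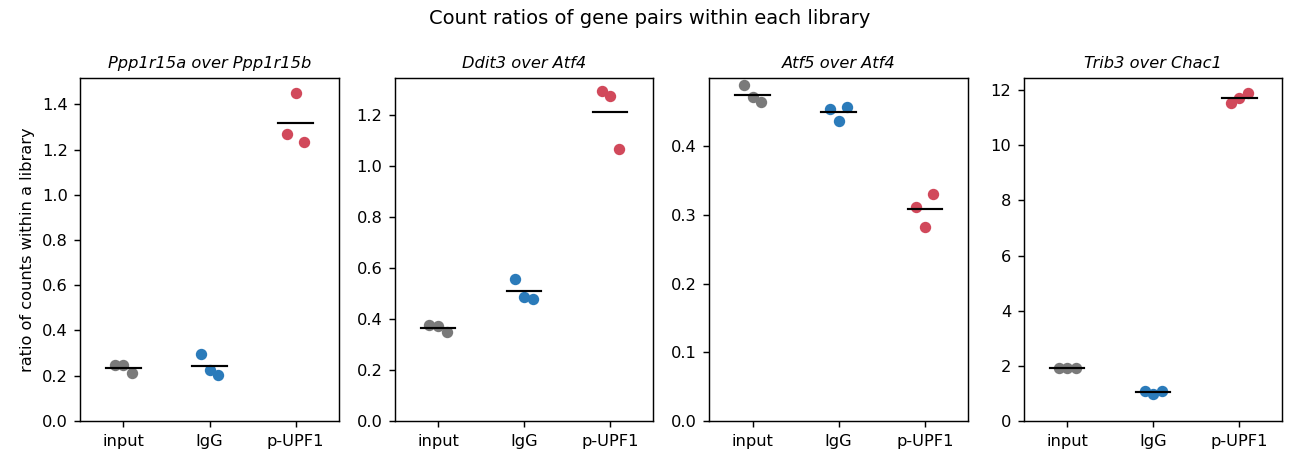
Ratio of the counts of 2 genes within each library, on linear axes from 0, with 1 point per library and a bar at the mean of 3. The p-UPF1 points are separate from IgG and input in each panel, above them for Ppp1r15a over Ppp1r15b, Ddit3 over Atf4 and Trib3 over Chac1, and below them for Atf5 over Atf4.

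Features of the reference mRNAs, which the choice of genes did not use, did not line up with enrichment in a single way. An upstream ATG was present in 7 of the 10 mRNAs and in 46.6% of the 11905 tested genes with a RefSeq mRNA. Of all tested genes with one, 6.04% were bound, and of those without, 6.61%, while the median log2 fold changes over IgG were 0.17 and -0.16. Among the 4 bound regulators Atf3, Ddit3 and Ppp1r15a had upstream ATGs and Trib3 had none. Among the other 6, Atf4, Atf5, Ppp1r15b and Cebpg had them and Cebpb and Chac1 did not.

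The upstream frames themselves differed in length and place. The single frame of Atf3 has 25 codons and ends 105 bases before the coding start. The 2 ATGs of Ddit3 share a frame, of 34 codons from the first, that ends 26 bases before the coding start. Ppp1r15a has frames of 45, 34 and 26 codons, and the last ends 23 bases before the coding start. In these 3 mRNAs every upstream frame ended before the coding start.

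Atf4 has upstream frames of 36 and 3 codons and another, of 59 codons, that opens 97 bases before the coding start and runs past it. Of the 6 upstream ATGs of Atf5, the fifth and the sixth share a frame that runs past the coding start, and open it 136 and 121 bases before that start. Only Atf4 and Atf5 had an overlapping frame, which 14.7% of tested genes had, of which 6.46% were bound (6.32% of those without, with medians over IgG of 0.29 and -0.05). Ppp1r15b has frames of 2, 8 and 51 codons ending 74 bases or more before the coding start, and the frame of Cebpg has 1 codon before its stop. The counts of these arrangements are descriptions of the annotated sequence, and translation of the frames was not measured.

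A splice junction over 50 bases after the main stop codon is the classical mark of an NMD substrate, and none of the 10 reference mRNAs had one (0.269% of tested genes did, or 32 genes). Of those 32 genes 25% were bound, against 6.29% of the others, with medians over IgG of 0.98 and 0.01 on the log2 scale. A junction over 50 bases after the stop of an upstream frame was found in 6 of the 10, namely Atf3, Ddit3, Ppp1r15a, Atf4, Atf5 and Ppp1r15b, and in 37.1% of tested genes. Of the tested genes with such a junction 5.59% were bound, and of those without, 6.79%, with median log2 fold changes over IgG of 0.18 and -0.12. The 3' UTRs of the bound regulators were 1186 bases in Atf3, 782 in Trib3, 197 in Ddit3 and 76 in Ppp1r15a. The median over tested genes was 1016 bases, and over the 755 bound genes with a transcript 1695 bases. The longest 3' UTRs among the 10, of 3962 bases in Cebpg and 2913 bases in Ppp1r15b, belonged to mRNAs that were lower in p-UPF1. Across the 11905 genes, which are not independent and share these libraries, Spearman's rho of log2 fold change over IgG was 0.359 with 3' UTR length and 0.133 with the number of upstream ATGs.

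**Figure D4:**
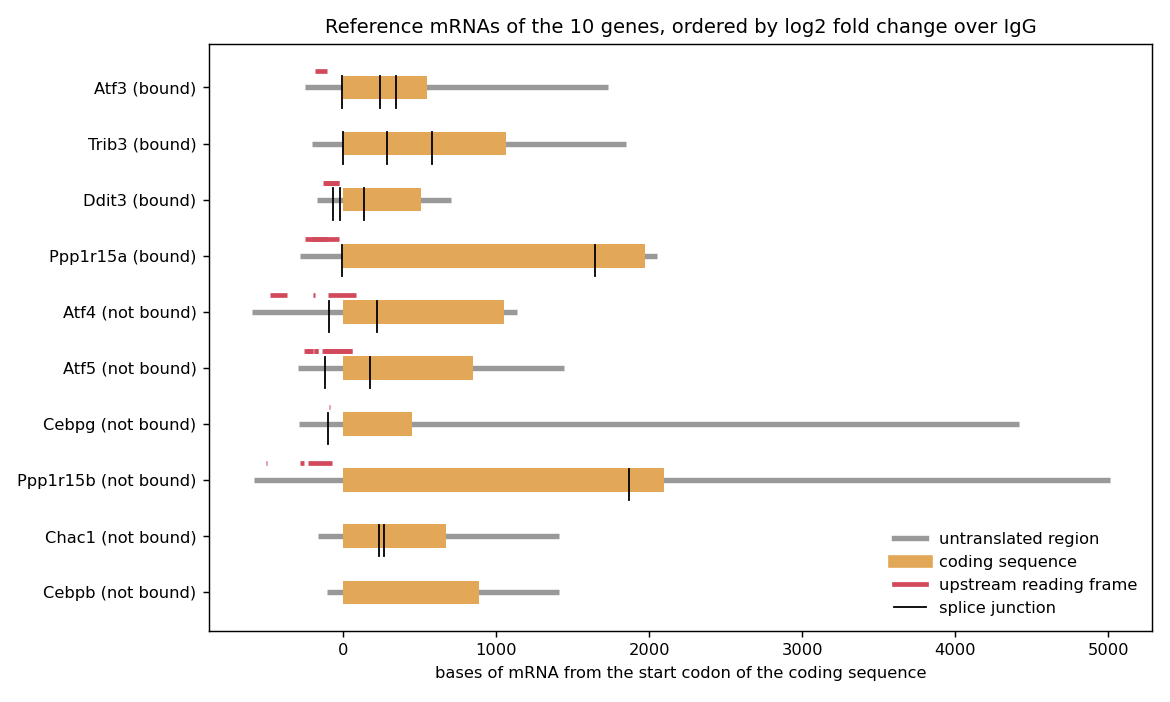
RefSeq Select mRNAs of the 10 genes in bases from the coding start, ordered from the highest to the lowest log2 fold change over IgG, with untranslated regions in gray, the coding sequence in orange, upstream frames in red (overlapping frames drawn as 1 line) and splice junctions as black ticks. No junction lies in a 3' UTR, the frames of Atf4 and Atf5 reach into the coding sequence, and Trib3, Chac1 and Cebpb have no upstream frame.

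Close paralogues of the regulators were compared next. Of 7, Cebpa and Cebpe had too few counts to be tested. Jdp2, the bZIP factor closest to ATF3, was bound, with 25.6 ± 0.590 CPM in input libraries, 24.6 ± 2.09 with IgG and 112 ± 3.93 with p-UPF1 (SD, n = 3). Its log2 fold change was 2.19 (SE 0.06) over IgG and 2.13 (SE 0.06) over input. It was bound in 22 of 23 alternative settings, and not with glmTreat. The pseudokinase genes Trib1 and Trib2 were higher over IgG by 1.27 (SE 0.05) and 0.95 (SE 0.09) on the log2 scale, and neither was bound. Chac2, the constitutive relative of Chac1, was lower by a log2 fold change of -1.41 (SE 0.20), in the same direction as Chac1. Cebpd was lower at -1.55 (SE 0.65), with under 1 CPM in each group. Of the 5, 3 were thus called higher (40.4% of all tested genes), 2 lower (42.2%) and 1 bound (6.25%), with edgeR adjusted P over IgG from 4.05e-15 (Jdp2) to 0.0365 (Cebpd).

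Genes that ATF4 and CHOP are known to drive lay on both sides of IgG. Of 26 listed, 25 were tested (Fgf21 was not), and 11 were higher and 12 lower in p-UPF1 than in IgG (40.4% and 42.2% of all tested genes), and their median was -0.17 on the log2 scale (-0.03 for all). By 1 or more on the log2 scale, 7 were higher and 7 lower (22.2% and 21.9%). Ddit4, an inhibitor of mTORC1 signalling, was the 1 bound gene (6.25% of all tested genes were bound), at 2.27 (SE 0.05) over IgG and 2.35 (SE 0.05) over input. It was bound in all 23 alternative settings, and Stc2, named here for this after its values were seen, was bound as well in 11 of them. The amino acid transporter gene Slc7a5 at 2.07 (SE 0.04) and Sesn2, of the leucine sensor Sestrin2, at 1.95 (SE 0.05) followed over IgG, and missed the minimum over input at 1.52 and 1.55. At the other end stood Phgdh, of serine synthesis, at -1.81 (SE 0.05), Asns, of asparagine synthesis, at -1.71 (SE 0.05) and Gdf15, a secreted stress hormone with under 1 CPM in each group, at -1.66 (SE 0.53). The adjusted P of these 6 over IgG ran from 7.01e-17 to 0.00851 in the edgeR test. Over input, 10 of the 25 were higher and 13 lower (40.8% and 42.6% of all tested genes).

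The machinery around eIF2 was counted in the same way. Of its 15 genes (kinases, subunits of eIF2 and eIF2B, and catalytic subunits of protein phosphatase 1), 4 were higher and 10 lower in p-UPF1 than in IgG (40.4% and 42.2% of all tested genes), with a median log2 fold change of -0.53. The difference from other genes was not tested. Eif2ak2, which encodes the RNA-activated kinase PKR, was the 1 bound gene (6.25% of all tested genes were bound), at 2.82 (SE 0.06) over IgG and 2.996 (SE 0.06) over input. Eif2b1 at 1.03 (SE 0.07) and Eif2ak3, of the kinase PERK, at 0.27 (SE 0.05) came next. The lowest were Ppp1ca, the phosphatase subunit that GADD34 and CReP hold, at -1.69 (SE 0.04), Eif2b2 at -1.17 (SE 0.05) and Eif2s2 at -1.05 (SE 0.09). The edgeR adjusted P of these 6 over IgG ran from 7.49e-17 to 3.79e-05.

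The IRE1 and ATF6 branches, the other arms of the unfolded protein response, held no bound gene among 15, since none reached the minimum of 2 over input at any P (6.25% of all tested genes were bound). Over IgG 4 were higher and 10 lower (40.4% and 42.2% of all tested genes), with a median log2 fold change of -0.81. Here too the difference from other genes was not tested. Atf6, which encodes the stress sensor itself, was at 2.08 (SE 0.05) over IgG and just missed the minimum over input at 1.97 (SE 0.05). It was bound in 5 of 23 alternative settings, DESeq2 and an IgG library as TMM reference among them. Mbtps1, of the protease that cuts ATF6, was at 1.29 (SE 0.04), and Ern1, which encodes IRE1, at 1.13 (SE 0.09). The genes of the chaperone proteins Dnajb9 at -2.38 (SE 0.07), Sdf2l1 at -2.01 (SE 0.05) and Hspa5 at -1.14 (SE 0.04) were lowest. The edgeR adjusted P of these 6 over IgG ran from 1.15e-15 to 5.42e-09.

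**Figure D5:**
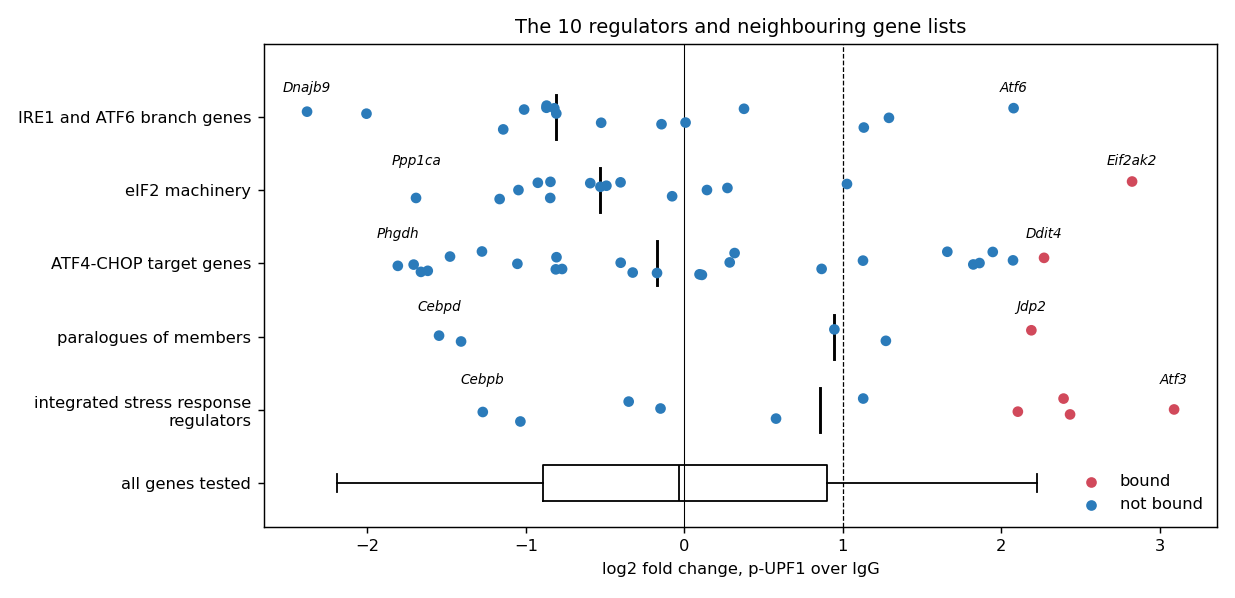
Log2 fold change of p-UPF1 over IgG for the tested genes of each list, with 1 point per gene, a vertical bar at the list's median, and the highest and lowest gene named. The box shows the middle of all tested genes with whiskers from the 5th to the 95th percentile, and the dashed line marks a log2 fold change of 1. The median of the 10 regulators is 0.85, while the medians of the ATF4-CHOP target genes, the eIF2 machinery and the IRE1 and ATF6 branch genes are -0.17, -0.53 and -0.81.

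Counts of some of the 10 genes may include reads of neighbours. Exons of genes on the opposite strand shared 148 of 2542 exon bases of Ddit3 (5.82%, with Mbd6 and Mars1), 82 of 1993 of Atf5 (4.11%, with Nup62 and Il4i1b), 191 of 4702 of Cebpg (4.06%, with Gm45095) and 11 of 2333 of Ppp1r15a (0.471%, with Tulp2). The other 6 had no gene on the opposite strand. How strand was used in counting the RIP-seq reads is not stated, and precipitated RNA gives no measure of how much of each mRNA was translated or decayed.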

How the data were processed

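RNA of 9 libraries (3 input, 3 IgG, 3 p-UPF1) was prepared with a directional kit. The authors deposited raw counts per gene, by NCBI Gene number. The submitters' processing notes name cutadapt, HISAT2, featureCounts and mm10, with versions not given in the sources used here, and the strand setting for RIP-seq is not stated. The counts hold no molecular identifiers, so counting error understates the true error. Columns carry letters and were assigned to groups only, with a block on the letters as an alternative added after seeing the data.

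Of 27179 genes, 6969 had no count, and 25275 matched a RefSeq symbol. Genes were filtered with filterByExpr (minimum count 10, minimum total 15), which left 13129 genes with 99.9% of the counts. The total count was 19873687 to 24945286 for input, 17372510 to 18550508 for IgG and 23251890 to 24802119 for p-UPF1 libraries. Counts were scaled by TMM and fitted in edgeR 4.0.16 (R 4.3.3) with 3 groups over all 9 libraries and 6 residual degrees of freedom. Each contrast was tested by glmQLFTest (two-sided). P-values were adjusted by Benjamini-Hochberg across the 13129 genes, and a prior count of 0.125 was used for log2 fold changes. Standard errors (SE) came from the test statistic. DESeq2 1.42.0 and limma 3.58.1 served as alternatives, and the scripts were tested on simulated data.

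The 10 genes and all lists were chosen with earlier results of these data known. All 10 were described in full. Other lists were counted whole, naming the 3 highest and 3 lowest log2 fold changes over IgG, or all tested paralogues. Upstream ATGs, frames, junctions and UTR lengths were read from the RefSeq Select transcript of each gene on GRCm38.p6.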

Additional observations from a re-analysis of the deposited data

How the results depend on the processing

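Over 30 log2 fold changes of the 10 genes and 23 alternatives, 631 values kept direction and call, 12 lost the call, 9 gained it and 28 changed sign (IgG over input was not run with glmTreat). The 12 came with glmTreat, which tests against the minimum fold and not against 0, apart from Cebpg over IgG without the filter. Those that changed sign were near 0: values of IgG over input, and Atf5 over input. The 4 bound genes were 3 (without Trib3) with library size alone or upper-quartile factors, at 1.99 and 1.97 over input, and 2 (Atf3 and Ddit3) with glmTreat, which tests the minimum fold itself. Over all tested genes, 754, 734 and 541 were bound in these settings, in that order, against 820 in the main fit. The bound regulators were 4 in every other setting, each left-out library included, where 767 to 1088 of all genes were bound. With glmTreat, 1 gene was lower over IgG and 2 were higher over input at the minimum, with adjusted P = 0.694 for Trib3 and 0.0513 for Ppp1r15a over input and 0.261 for Chac1 over IgG. The count lower over IgG at the minimum was 1 without the low-count filter, and 1 to 2 when 1 library was left out (1 without p-UPF1 library C). The 1 gene higher in IgG than in input became 2 with library size alone, upper-quartile factors, an input or an IgG library as TMM reference, or only the groups compared, and 3 without the filter (Ppp1r15b joining Chac1 each time, and Ppp1r15a without the filter). Cebpg over IgG was not called without the filter, Atf5 was called lower than input with upper-quartile factors, and Cebpg lower in IgG than in input without IgG library C (3 genes becoming 4). Library size alone moved the median of all genes over IgG to -0.19, upper-quartile factors to -0.17 and an input library as TMM reference to -0.12. Atf4 over IgG was 0.967 with library size alone and 0.992 with upper-quartile factors, so that 4 and not 5 genes were higher at the minimum. Apart from the bound genes, the matching counts over all tested genes in alternative settings are not given. Atf5 over input was 0.0042 with DESeq2 size factors, 0.071 with an IgG reference, 0.0043 with DESeq2 and 0.093 without the filter. For IgG over input, Atf3 was 0.095, 0.049, 0.0099, 0.086, 0.087, 0.0101, 0.068 and 0.087 with, in order, library size alone, upper-quartile factors, DESeq2 size factors, an input reference, an IgG reference, DESeq2, no filter and only the groups compared. Ddit3 was 0.054, 0.0083, 0.045, 0.046, 0.026 and 0.045 with the same settings other than the DESeq2 ones. Cebpg was 0.019, 0.011, 0.011 and 0.011 with library size alone, the input and IgG references and only the groups compared. Leaving out 1 library gave, for IgG over input, -0.083 to 0.074 for Atf3, -0.097 to 0.076 for Cebpb, -0.051 to 0.14 for Ppp1r15a and -0.0003 to 0.083 for Ppp1r15b. The cause was not tested. A block on the numbers of the labels could not be fitted, since the columns are lettered. A replicate block on the letters, added after seeing the data, left 4 residual degrees of freedom and changed no call of the 10 genes, with 4 bound. Deviations from the group means correlated at -0.005 to 0.054 between the 9 pairs of libraries with the same letter. Between the other 18 pairs they correlated at -0.056 to 0.022. Same-letter pairs of A and of B lay at 0.032 to 0.054, and those of C at -0.005 to 0.008. Correlations this small cannot decide whether a letter marks a shared lysate. The main fit had no block, and with the block Ddit3 over IgG had edgeR adjusted P = 1.03e-14 (2.48e-12 without it). Depth limits Cebpd and Gdf15 most, at under 1 CPM in each group.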
